A study of Mus musculus with 10 samples.

Results

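The genes described here are 35 members of the unfolded protein response (UPR) and the integrated stress response (ISR), measured by bulk RNA sequencing in tumor-draining lymph nodes (TDLNs) of mice. They were taken by symbol from a named list, after the Ensembl identifiers had been matched to mouse gene symbols, and all 35 were found among the 33585 genes of the files and averaged 1 FPKM or more over all libraries, Chac1 only through the MWA+2DG group. The list holds 13 chaperones and folding enzymes, 8 genes of endoplasmic reticulum (ER) associated degradation, 3 stress sensors with their effector Xbp1, 8 genes of the Atf4 branch and 2 genes of protein translocation into the ER. The Atf4 branch list includes Atf4 itself.

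Every mouse was a wild-type female BALB/c animal of 6 weeks carrying a subcutaneous tumor of 4T1, a mouse mammary carcinoma line, and its tumor was destroyed by microwave ablation (MWA) on day 10. One group of 5 mice, labelled MWA, received MWA alone in the labels and, by the study's methods, PBS injections. The other 5 mice, labelled MWA+2DG, also received 2-deoxy-D-glucose (2DG), a glucose analogue that blocks glycolysis, at 500 mg/kg every 2 days by intraperitoneal injection. The inguinal node draining the tumor was collected on day 15, so both groups carried the tumor and the ablation, and each library came from 1 mouse.

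The ER folds and glycosylates secreted and membrane proteins, and unfolded protein in it activates the sensors Ern1 (IRE1), Eif2ak3 (PERK) and Atf6. Ern1 splices Xbp1 mRNA, Atf6 and spliced Xbp1 raise the transcription of chaperones and degradation genes, and Eif2ak3 phosphorylates eIF2-alpha, which slows translation in general and favours that of Atf4. Other kinases reach Atf4 through the same phosphorylation, for example when amino acids are scarce, and in a lymph node the cell that depends most on Xbp1 is the antibody-secreting plasma cell.

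FPKM (fragments per transcript length and sequencing depth) is divided by length and depth, so levels of different genes can be compared, but no read count or depth can be recovered from it. A log2 fold change below is the difference of the group means of log2(FPKM + 1), MWA+2DG minus MWA, which understates the change of genes near 1 FPKM. P is that of limma, whose fit ran across the 13334 genes that averaged 1 FPKM or more, and a gene is called by the study's rule when its unadjusted P is below 0.05 and its log2 fold change is beyond 0.25 in either direction. The P-values measure the spread between mice of a group. In bulk tissue, fewer cells of a type and less RNA per cell cannot be told apart.

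Replicates 1 and 2 of both groups stood apart from replicates 3 to 5 of both groups. Alb, a liver transcript, lay between 35.1 and 102 FPKM in the 6 libraries of replicates 3 to 5 and at 0.0486 FPKM or less in the other 4. The named genes and the groups of genes are therefore also given within replicates 3 to 5, a split chosen after the data had been seen. MWA+2DG replicate 5 had the highest summed level of the 5 adipose markers (93.5 FPKM, against 4.53 to 18.1 in the MWA group) and the lowest of the 7 cell division markers (76.6 FPKM, against 114 to 154 in the MWA group). The 6 neutrophil markers summed to 19.1 to 94.2 FPKM in the MWA group and 9.04 to 17.1 FPKM in the MWA+2DG group, with Ly6g at 0 in 5 libraries. The part of these differences in the results below was not tested.

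Promoter sequence was not used to choose the members. They were listed as genes of these stress responses, so shares of stress response elements among them are not independent of that choice. RefSeq promoters of mouse build GRCm38.p6, from 250 bases before to 50 bases after the start of the gene, were present in the table for 30 of the 35 members. Both strands were searched for the ER stress response element ERSE (CCAAT, then 9 bases of any kind, then CCACG), for ERSE-II (ATTGG, then 1 base of any kind, then CCACG), for the unfolded protein response element UPRE (TGACGTG) and for the C/EBP-ATF response element CARE (TGATGNAA), with N any base. ERSE and ERSE-II are sites of Atf6, with or without Xbp1, and CARE is the site of Atf4 with its C/EBP partners. ERSE was found in 6 of the 30 members (20.0%) and in 0.137% of 27025 genes. It was found in 5 of 11 chaperones, namely Hspa5, Hsp90b1, Pdia6, Dnajc3 and Creld2, and in the degradation gene Syvn1. The stretches below hold the ERSE match of a chaperone whose level varied with plasma cell transcripts (Creld2), of 1 whose level varied less with them (Hspa5), and of Syvn1, and they are written 5′ to 3′ on the strand of the gene with the fixed letters of the motif in capitals (on the opposite strand these read CGTGG and ATTGG).
Hspa5, chr2:34772010-34772058, + strand: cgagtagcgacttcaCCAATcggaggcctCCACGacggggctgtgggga
Creld2, chr15:88819505-88819553, + strand: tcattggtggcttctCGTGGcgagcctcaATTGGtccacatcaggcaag
Syvn1, chr19:6046517-6046565, + strand: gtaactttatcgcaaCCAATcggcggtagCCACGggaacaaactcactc
Every ERSE holds a CCACG, and CCACG alone was found in 23 of the 30 members (76.7%) and in 35.5% of all genes.

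ERSE-II was found in Herpud1 and Dnajb11, which is 6.67% of the members against 0.0444% of all genes, and the Herpud1 stretch is given as the example that lies before the start of the gene. UPRE was found in Hspa5 alone, 3.33% of the members against 2.22% of all genes. CARE was found in 4 of 7 Atf4 branch promoters (57.1%), namely those of Atf3, Trib3, Chac1 and Asns, and in Herpud1, against 4.51% of all genes. The matches of Chac1, Asns and Atf3 are shown because these promoters belong to the branch with the highest median fold change below.
Herpud1, chr8:94386362-94386402, + strand: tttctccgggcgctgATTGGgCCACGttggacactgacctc
Chac1, chr2:119351034-119351071, + strand: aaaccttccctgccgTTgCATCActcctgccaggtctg
Asns, chr6:7693210-7693247, - strand: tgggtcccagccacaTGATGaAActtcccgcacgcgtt
Atf3, chr1:191183421-191183458, - strand: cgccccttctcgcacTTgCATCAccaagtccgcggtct
No CARE was found in this window for Ddit3 and no ERSE or UPRE for Xbp1. A match is a description of the letters and not a measured binding site.

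Of the 35 members, 2 were called higher with 2DG (Chac1 and Ddit3) and 1 lower (Xbp1), where 0.952% of all tested genes were called higher and 1.87% lower. Chac1 averaged 0.675 FPKM in the MWA group and 1.48 FPKM in the MWA+2DG group, so it passed the filter of 1 FPKM only through the group in which it was higher, and 1 higher call (Ddit3) is left without it. With Benjamini-Hochberg adjustment over all genes in limma 0 members and 0 genes (0%) passed at 0.05, while 3 members and 567 genes had an unadjusted P below 0.05 and the Wilcoxon rank-sum test gave 416 genes. No member had groups that do not overlap, against 0.802% of all genes. The log2 fold change was above 0 in 13 members and below 0 in 22, with a median of -0.02 against 0.01 over all tested genes. The median was 0.25 in the Atf4 branch (7 of 8 above 0), -0.02 in the chaperones (3 of 13 above 0), -0.04 in the degradation genes (2 of 8), -0.13 in the sensors with Xbp1 (1 of 4) and -0.11 in the 2 translocation genes. The Atf4 branch median includes Chac1, and the middle value of the other 7 genes of that branch was 0.16 (Atf3). All 3 calls were lost without MWA+2DG replicate 5, as given with each gene below, while 222 of 13348 genes were then called higher and 176 lower.

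**Figure D1:**
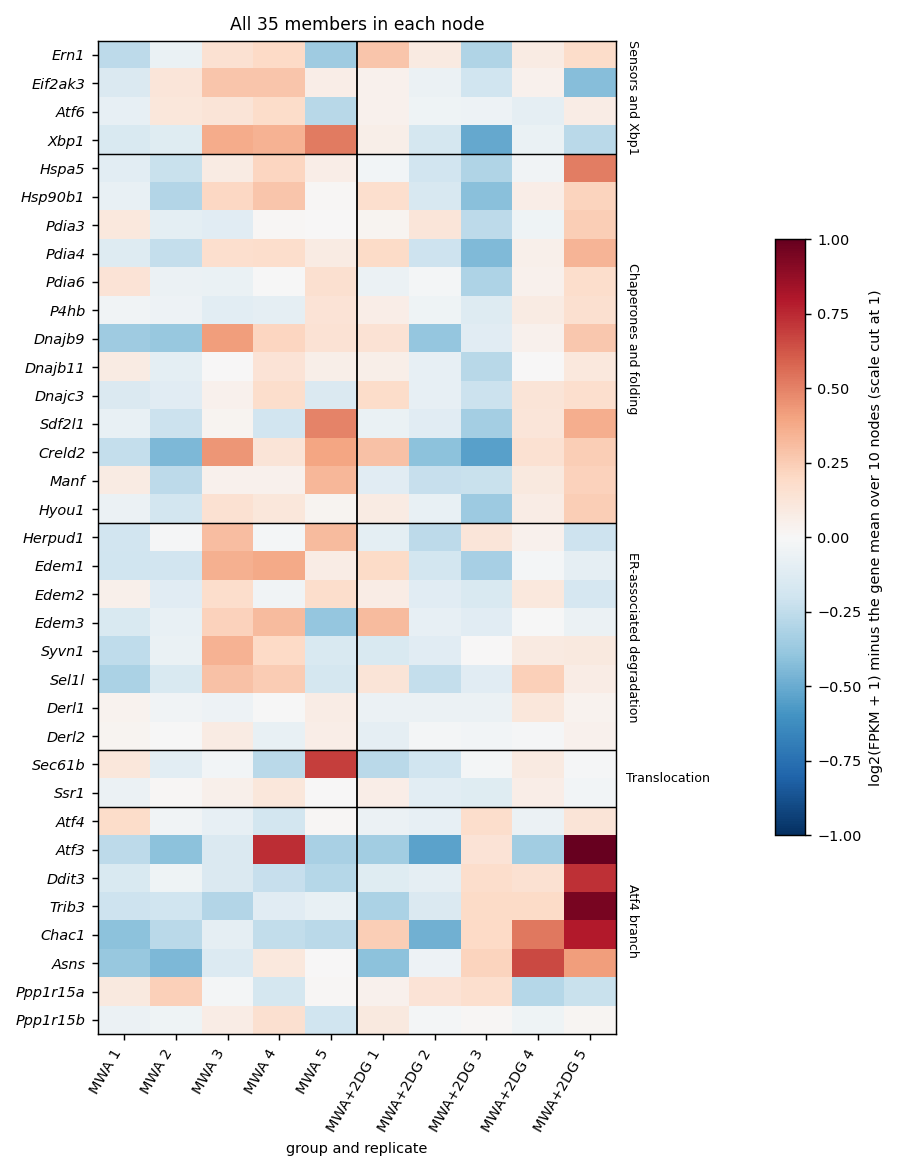
Level of each of the 35 members (rows, grouped by role) in each of the 10 nodes (columns), as log2(FPKM + 1) minus the gene's mean over the nodes, red above and blue below. Xbp1 is high in MWA replicates 3 to 5, and Ddit3, Trib3, Chac1 and Asns are high in MWA+2DG replicates 3 to 5, most of all in replicate 5 except for Asns.

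Xbp1, the transcription factor that drives ER expansion in secretory cells, was called lower with 2DG. It was at 46.2, 47.3, 66.9, 65.5 and 74.0 FPKM in MWA replicates 1 to 5. In MWA+2DG replicates 1 to 5 it was at 53.5, 45.4, 35.8, 48.9 and 42.4 FPKM. MWA replicates 3 to 5 lay above every MWA+2DG library, while MWA replicates 1 and 2 lay within the MWA+2DG range. The MWA mean was 60.0 ± 12.5 FPKM (SD, n = 5), and the MWA+2DG mean was 45.2 ± 6.68 FPKM (SD, n = 5). The log2 fold change was -0.39 (SE 0.15, limma P = 0.0287, adjusted p = 0.995, exact permutation p = 0.0714), and the exact test, two-sided and on FPKM, cannot go below 0.00794 for 5 mice against 5. With single libraries left out the log2 fold change stayed between -0.47 and -0.31, the call was lost without MWA replicate 3, 4 or 5 or MWA+2DG replicate 3 or 5, and the exact permutation p was between 0.0397 and 0.127. The call was also lost when values were rescaled to a common sum (log2 fold change -0.33), with quantile normalization (-0.32) and with the Wilcoxon test. The FPKM values are per gene and do not separate spliced from unspliced Xbp1.

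Within replicates 3 to 5 the log2 fold change of Xbp1 was -0.70 (exact permutation p = 0.1, the smallest that 3 mice against 3 can give), and in replicates 1 and 2 it was 0.08. The difference between these 2 values was not tested. Plasma cell transcripts moved with Xbp1 in the same libraries. Jchain, which encodes the joining chain of secreted antibody polymers and marks plasma cells, was at 142, 153, 484, 457 and 479 FPKM in MWA replicates 1 to 5 and at 312, 109, 94.0, 265 and 106 FPKM in MWA+2DG replicates 1 to 5. The groups overlapped in Jchain (exact permutation test, p = 0.0952). The 13 plasma cell markers summed to 5163 to 16453 FPKM with MWA and to 4129.7 to 8639 FPKM with MWA+2DG (exact permutation test, p = 0.127), and Tnfrsf17, which encodes the survival receptor BCMA, was listed at 0 in MWA+2DG replicate 5. By the rule Mzb1 (log2 fold change -0.50), Ighg2b (-1.56), Ighg3 (-1.26) and Ighm (-0.33, groups that do not overlap) were called lower, as were 1.87% of all genes. Irf4 (0.05) and Igha (0.36) were above 0, and the other markers tested were not called. With log2(Jchain + 1) as a covariate the log2 fold change of Xbp1 was -0.12 (SE 0.09, limma adjusted p = 1.00).

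Eif2ak3, the ER kinase that phosphorylates eIF2-alpha, had the next lowest fold change among the sensors. It was at 10.3, 12.5, 14.1, 14.1 and 12.05 FPKM in the MWA libraries and at 11.9, 11.0, 9.87, 11.8 and 8.26 FPKM in the MWA+2DG libraries. All MWA libraries but replicate 1 lay above every MWA+2DG library. The log2 fold change was -0.24 (SE 0.11, exact permutation p = 0.0714), which does not pass the rule, and within replicates 3 to 5 it was -0.40 (exact permutation p = 0.1).

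Ern1, the IRE1 kinase and nuclease, was expressed at 2.72, 3.27, 3.97, 4.15 and 2.50 FPKM with MWA and at 4.43, 3.76, 2.64, 3.73 and 4.08 FPKM with MWA+2DG. The groups overlapped widely (log2 fold change 0.13, exact permutation p = 0.389). In replicates 1 and 2 alone Ern1 was called higher by the rule (log2 fold change 0.35, exact permutation p = 0.333, the smallest that 2 mice against 2 can give), and in replicates 3 to 5 its value was -0.01. Atf6, a sensor that becomes a transcription factor after cleavage, was at 5.38, 6.31, 6.40, 6.68 and 4.58 FPKM with MWA and at 5.96, 5.55, 5.53, 5.36 and 6.10 FPKM with MWA+2DG. All MWA+2DG libraries of Atf6 lay inside the MWA range (log2 fold change -0.03, exact permutation p = 0.690), and within replicates 3 to 5 the log2 fold change was also -0.03.

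Ddit3, which encodes the stress transcription factor CHOP, was called higher with 2DG. In MWA replicates 1 to 5 it was at 12.4, 13.5, 12.5, 11.7 and 11.2 FPKM. In MWA+2DG replicates 1 to 5 it was at 12.7, 13.0, 15.9, 15.6 and 23.7 FPKM. MWA+2DG replicates 3 to 5 lay above every MWA library, and replicates 1 and 2 lay inside the MWA range. The MWA mean was 12.3 ± 0.858 FPKM (SD, n = 5), and the MWA+2DG mean was 16.2 ± 4.46 FPKM (SD, n = 5). On the log2 scale the fold change was 0.34 (SE 0.15, limma P = 0.0397, adjusted p = 0.995, exact permutation p = 0.0397). With MWA+2DG replicate 5 left out, the log2 fold change was 0.20 (exact permutation p = 0.0635), under the size the rule asks for. The call was also lost without any of MWA replicates 1, 3, 4 and 5 and without MWA+2DG replicate 3 or 4, and over all single omissions the exact permutation p was between 0.0159 and 0.0873. Within replicates 3 to 5 the log2 fold change was 0.57 (exact permutation p = 0.1), and in replicates 1 and 2 it was -0.01. Quantile normalization and median ratio scaling left the log2 fold change at 0.33 and 0.34, without a call.

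Chac1, a glutathione-degrading enzyme induced through Atf4, was called higher at a low level. It was at 0.505, 0.654, 0.870, 0.686 and 0.659 FPKM with MWA and at 1.36, 0.427, 1.29, 1.88 and 2.46 FPKM with MWA+2DG. All MWA+2DG libraries but replicate 2 lay above every MWA library, and MWA+2DG replicate 2 was the lowest of the 10. The log2 fold change was 0.51 (SE 0.20, limma P = 0.0245, adjusted p = 0.995, exact permutation p = 0.0476). Its mean over the 10 libraries was 1.08 FPKM, and without MWA+2DG replicate 4 or 5 it fell under the filter and had no test. With no filter at all Chac1 was still called higher, and with the Wilcoxon test it was not. The call was also lost without MWA replicate 1 (exact permutation p = 0.111), and within replicates 3 to 5 the log2 fold change was 0.71 (exact permutation p = 0.1).

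Trib3, a pseudokinase that is a target of Atf4 and CHOP, was at 1.13, 1.14, 1.01, 1.28 and 1.34 FPKM with MWA and at 0.978, 1.22, 1.80, 1.81 and 3.76 FPKM with MWA+2DG. MWA+2DG replicates 3 to 5 again lay above every MWA library. The log2 fold change was 0.35 (SE 0.20, exact permutation p = 0.127). It was 0.16 without MWA+2DG replicate 5 and 0.60 within replicates 3 to 5 (exact permutation p = 0.1). Asns, asparagine synthetase, was at 3.95, 3.70, 4.85, 5.90 and 5.44 FPKM with MWA and at 3.83, 5.18, 6.49, 9.16 and 7.57 FPKM with MWA+2DG, and was picked for description after its values had been seen. Its 3 highest libraries were MWA+2DG replicates 3 to 5. The log2 fold change of Asns was 0.34 over all libraries (exact permutation p = 0.135) and 0.44 within replicates 3 to 5 (exact permutation p = 0.1). Asns was also the 1 member that differed between replicates 3 to 5 and replicates 1 and 2 over both groups (log2 difference 0.53, limma adjusted p = 0.0312), and with that difference as a term its treatment value had an adjusted p = 0.837 in limma.

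Atf4 mRNA, which encodes the factor that names this branch, was at 89.6, 76.8, 74.2, 69.4 and 79.5 FPKM with MWA and at 75.5, 74.5, 89.2, 75.4 and 86.2 FPKM with MWA+2DG, so the groups overlapped over nearly their whole range (log2 fold change 0.04, exact permutation p = 0.659). Within replicates 3 to 5 its log2 fold change was 0.17 (exact permutation p = 0.2), and in replicates 1 and 2 it was -0.14. The difference between Atf4 and the other genes of the branch was not tested. Atf4 is largely controlled at translation, which these libraries do not measure. Atf3, a stress-induced repressor, was between 0.803 and 3.00 FPKM with MWA and between 0.652 and 5.76 FPKM with MWA+2DG, and its highest values were single libraries, MWA+2DG replicate 5 and MWA replicate 4 (log2 fold change 0.16, exact permutation p = 0.698, and 0.34 within replicates 3 to 5). Ppp1r15a (GADD34) and Ppp1r15b (CReP), the phosphatase subunits that reverse eIF2-alpha phosphorylation, had log2 fold changes of -0.06 and 0.03, and of -0.05 and -0.01 within replicates 3 to 5.

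**Figure D2:**
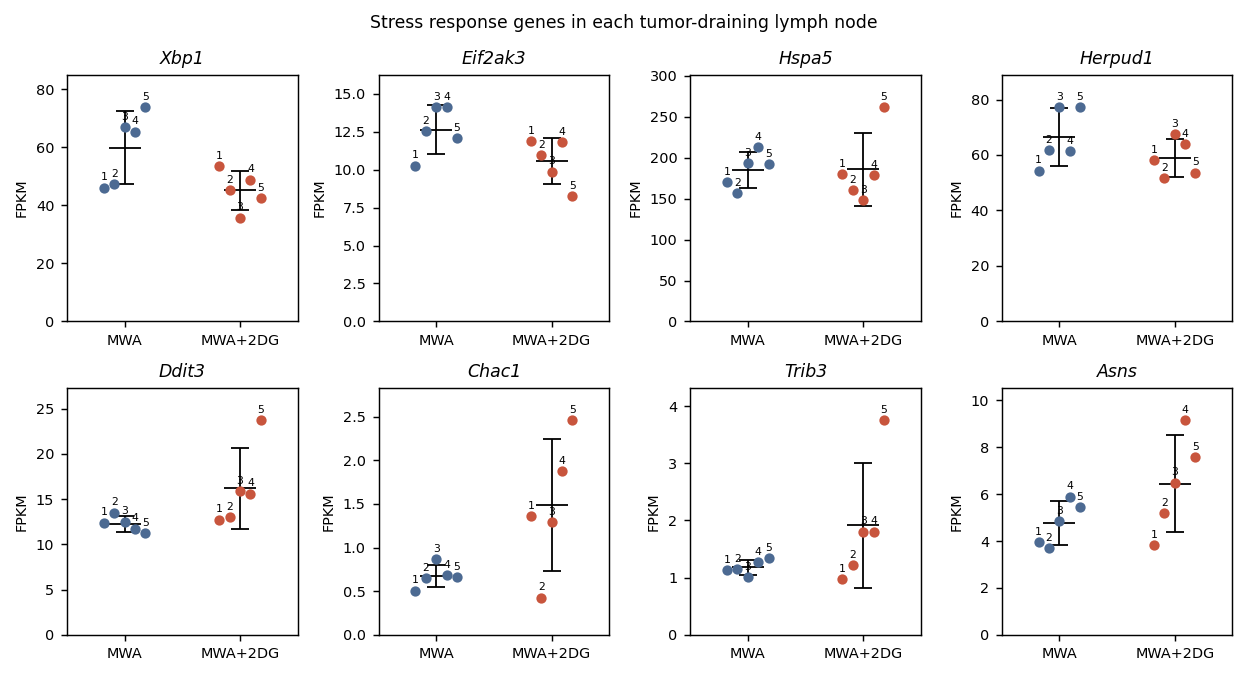
FPKM of 8 members in each node, with MWA in blue and MWA+2DG in red. Numbers are replicates, long dashes group means and error bars SD (n = 5). MWA+2DG replicate 5 is the highest library for Hspa5, Ddit3, Chac1 and Trib3, and the groups overlap in every panel.

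The mean of log2(FPKM + 1) over the 8 Atf4 branch genes was 2.99, 2.98, 3.03, 3.14 and 2.99 in MWA replicates 1 to 5 and 3.02, 2.97, 3.29, 3.23 and 3.67 in MWA+2DG replicates 1 to 5. MWA+2DG replicates 3 to 5 lay above every MWA library, replicate 1 within the MWA range and replicate 2 just below it. The group difference in this mean log2 level was 0.21, and 0.07 over the 7 genes still tested without MWA+2DG replicate 5. Those 7 genes leave out Chac1, so the 2 values differ in genes as well as in libraries. Over all 8 genes it was 0.35 in replicates 3 to 5 and 0.02 in replicates 1 and 2, and no test was run on this mean because the genes were chosen with results of these data known. These 8 genes include Chac1, which passed the filter only through the MWA+2DG group.

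Calls among all 35 members differed between the replicate sets in number. In replicates 3 to 5 alone, 4 members were called higher (Ddit3, Trib3, Chac1 and Asns) and 3 lower (Xbp1, Eif2ak3 and Edem1), where 1.26% of 13277 tested genes were called higher and 2.93% lower. There Chac1 averaged 0.738 FPKM with MWA and 1.88 FPKM with MWA+2DG, so it again passed the filter only through the group in which it was higher. Ddit3, Trib3 and Asns are left as higher calls without it. In replicates 1 and 2 alone, 1 of the 33 members tested was called higher (Ern1) and 0 lower, where 2.89% of 13404 genes were called higher and 2.25% lower. With limma and adjustment over all genes, 0 genes passed in either set.

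No chaperone was called in either direction. Hspa5 (BiP), the main ER chaperone and the partner that holds the sensors inactive, was at 169.9, 157, 194, 213 and 192 FPKM with MWA and at 179.8, 161, 148, 179 and 262 FPKM with MWA+2DG. Only MWA+2DG replicate 5 lay above the MWA range and only MWA+2DG replicate 3 below it. For Hspa5 the log2 fold change was -0.01 (SE 0.15, exact permutation p = 0.968), and it was -0.14 without MWA+2DG replicate 5 (exact permutation p = 0.198) and -0.06 within replicates 3 to 5.

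The 3 chaperones of smallest P were Dnajb11, Manf and P4hb. Dnajb11, a DnaJ co-chaperone of BiP, was at 43.0, 37.8, 40.7, 44.6 and 42.2 FPKM with MWA and at 42.1, 38.3, 33.3, 40.6 and 43.7 FPKM with MWA+2DG (log2 fold change -0.08, exact permutation p = 0.381). Manf, a secreted ER stress protein, was at 37.3, 29.1, 36.2, 36.2 and 44.5 FPKM with MWA and at 32.3, 29.8, 29.9, 37.7 and 41.5 FPKM with MWA+2DG (log2 fold change -0.10, exact permutation p = 0.5). P4hb, a disulfide isomerase, was at 100.2, 98.8, 95.0, 96.4 and 113 FPKM with MWA and at 108, 99.6, 93.7, 109 and 114 FPKM with MWA+2DG (log2 fold change 0.06, exact permutation p = 0.429). The groups overlapped in each of these genes. The other 9 chaperones, which are Hsp90b1 (GRP94), the disulfide isomerases Pdia3, Pdia4 and Pdia6, the DnaJ proteins Dnajb9 and Dnajc3, Sdf2l1, Creld2 and Hyou1, had log2 fold changes from -0.11 (Creld2) to 0.07 (Dnajc3). The 13 chaperones ranged within replicates 3 to 5 from -0.37 (Creld2) to 0.06 (P4hb), with Dnajb11 at -0.12 and Manf at -0.10, and in replicates 1 and 2 they ranged from -0.08 (Manf) to 0.29 (Creld2).

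Among the degradation genes, Herpud1, Edem1 and Edem2 had the smallest P. Herpud1, which organises the degradation complex in the ER membrane, was at 54.4, 61.7, 77.2, 61.4 and 77.4 FPKM with MWA and at 58.1, 51.5, 67.6, 63.9 and 53.6 FPKM with MWA+2DG (log2 fold change -0.16, exact permutation p = 0.206). Edem1, a mannosidase-like protein that hands glycoproteins to degradation, was at 31.3, 31.5, 46.3, 47.2 and 38.0 FPKM with MWA and at 41.3, 31.6, 28.4, 35.6 and 33.8 FPKM with MWA+2DG (log2 fold change -0.17, exact permutation p = 0.286). Edem1 was lower in each of MWA+2DG replicates 3 to 5 than in each of MWA replicates 3 to 5, and within these 6 libraries its log2 fold change was -0.42 (exact permutation p = 0.1). Edem2, of the same family, was at 21.3, 19.0, 23.4, 20.1 and 23.4 FPKM with MWA and at 21.8, 19.0, 18.4, 22.2 and 18.3 FPKM with MWA+2DG (log2 fold change -0.10, exact permutation p = 0.238). The other 5, which are Edem3, the ubiquitin ligase Syvn1 (HRD1) with its partner Sel1l, and the channel proteins Derl1 and Derl2, had log2 fold changes from -0.04 (Derl2) to 0.03 (Sel1l). The 8 degradation genes ranged within replicates 3 to 5 from -0.42 (Edem1) to 0.03 (Derl1), with Herpud1 at -0.22 and Edem2 at -0.18, and in replicates 1 and 2 they ranged from -0.08 (Herpud1) to 0.23 (Edem3).

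The translocation genes gave no call. Sec61b, a subunit of the translocation channel, was at 63.6, 54.3, 57.5, 48.5 and 95.3 FPKM with MWA and at 48.3, 51.0, 57.9, 62.6 and 58.1 FPKM with MWA+2DG. Its log2 fold change was -0.16 over all libraries (exact permutation p = 0.468), against -0.01 when MWA replicate 5, the single high library, was left out. Ssr1, of the translocon-associated complex, was at 10.8, 11.3, 11.7, 12.3 and 11.3 FPKM with MWA and at 11.8, 10.4, 10.3, 11.8 and 11.0 FPKM with MWA+2DG (log2 fold change -0.05, exact permutation p = 0.357). Within replicates 3 to 5 the log2 fold changes were -0.11 for Sec61b and -0.09 for Ssr1.

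**Figure D3:**
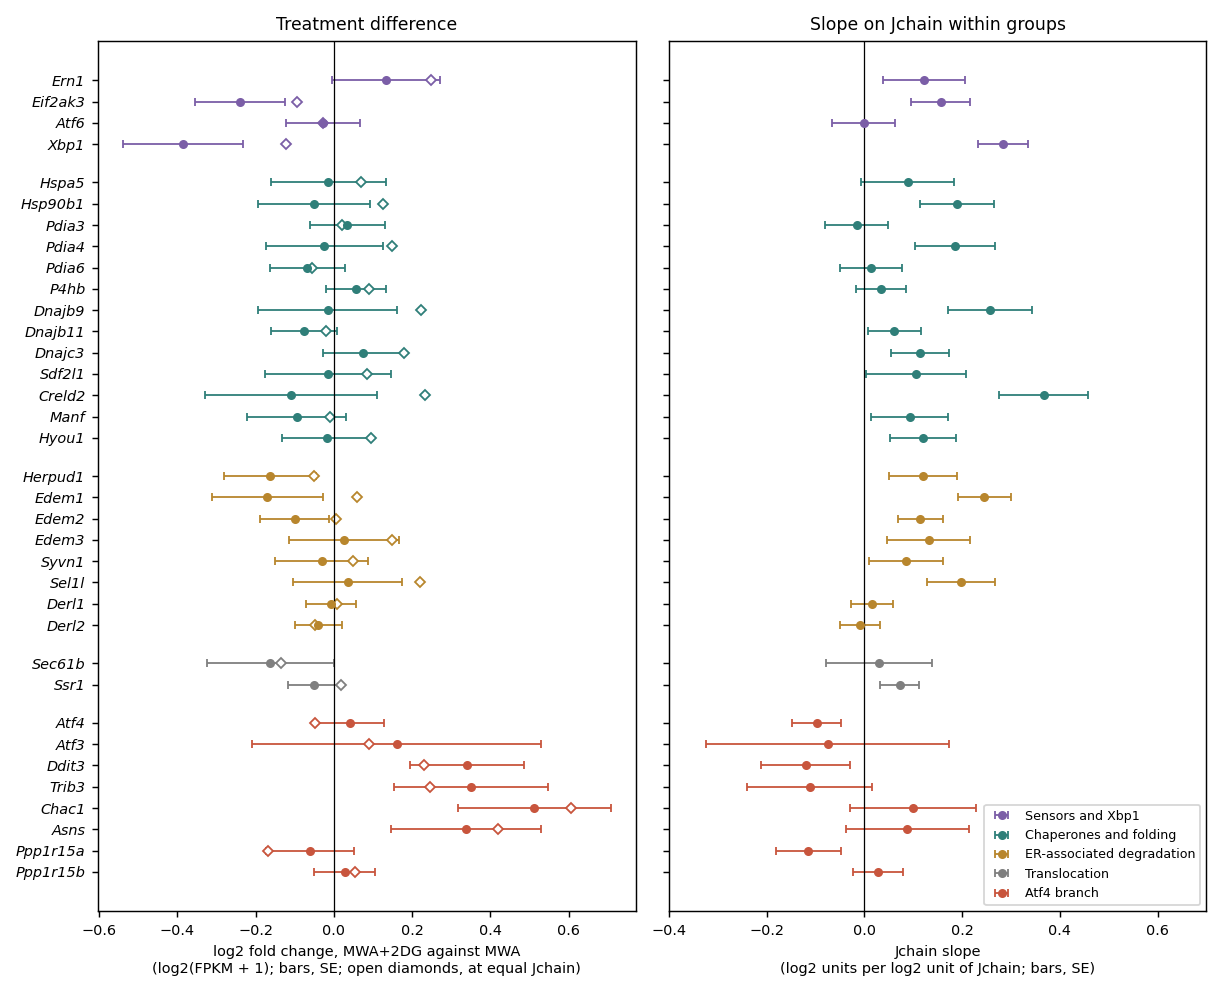
Left, log2 fold change of each of the 35 members (filled points, bars SE) and the same at equal Jchain (open diamonds). Right, slope of each member on log2(Jchain + 1) with a group term (bars SE). Xbp1 has the lowest fold change and moves toward 0 at equal Jchain, and the Atf4 branch has slopes on both sides of 0.

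The relation to plasma cell content was read from the slope of each gene's log2(FPKM + 1) on log2(Jchain + 1) in a limma fit with a group term, so it compares mice of the same group. The slope was above 0 in 27 of the 35 members, with a median of 0.09 against -0.01 over the 13333 genes. At an unadjusted P below 0.05, 9 of the 35 members had a slope above 0 and 0 below, where 2.21% of all genes had a slope above 0 and 1.65% below at that P. With Benjamini-Hochberg adjustment 0 members passed in limma, and 8 genes (0.06%) did, of which 6 carry immunoglobulin gene names. One of the remaining pair was Derl3, a degradation channel gene outside the 35 members, with a slope of 0.79 (limma adjusted p = 0.0179).

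The 9 members were the sensor gene Eif2ak3 and Xbp1, the chaperones Hsp90b1, Pdia4, Dnajb9 and Creld2, and the degradation genes Edem1, Edem2 and Sel1l. Xbp1 had a slope of 0.28 (SE 0.05, limma adjusted p = 0.171), so a doubling of Jchain went with that many log2 units of Xbp1. Creld2, a disulfide isomerase of the ER whose promoter match is shown above, had the steepest member slope, 0.37 (SE 0.09, limma adjusted p = 0.622). It was at 48.9, 42.1, 78.9, 63.4 and 76.5 FPKM in the MWA libraries and at 71.1, 43.3, 39.3, 64.4 and 68.8 FPKM in the MWA+2DG libraries. In both groups the libraries with the most Jchain had high Creld2, and MWA+2DG replicate 5 had high Creld2 with low Jchain. Edem1 had a slope of 0.25 (SE 0.05, limma adjusted p = 0.455). The other 6 slopes lay between 0.11 (Edem2) and 0.26 (Dnajb9).

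Without each library in turn, the slopes of Xbp1, Creld2 and Edem1 had P below 0.05 in all 10 fits. The number of members with such a slope above 0 and the share over all genes both changed with the library left out. The number was 5 without MWA replicate 1 (1.10% of all genes) or replicate 3 (1.73%), and 12 without MWA replicate 5 (4.52%) or MWA+2DG replicate 5 (2.67%). In replicates 3 to 5 alone 0 of the 35 slopes had P below 0.05 (0.964% of all genes had such a slope above 0). There the slope of Xbp1 was 0.24 and that of Creld2 0.27. With the replicate set as a further term in all 10 libraries, 7 members had a slope above 0 at P below 0.05, against 2.56% of all genes. Xbp1 had 0.29 in that fit, and 2 members had slopes below 0 at P below 0.05, a count given without its share over all genes.

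The Atf4 branch showed 0 slopes at P below 0.05 in either direction and a median slope of -0.09. Atf4 had a slope of -0.10 and Ddit3 one of -0.12. Both slopes stayed below 0 in the other settings, and each had P below 0.05 in 2 of 12 of them. With single libraries left out, P was below 0.05 in 1 of 10 fits for Atf4 and in 0 for Ddit3. Hspa5, with a slope of 0.09, varied less with Jchain than Creld2 did in value, although both promoters hold an ERSE, and the difference between these slopes was not tested. Without MWA+2DG replicate 5 the slope was 0.16 for Hspa5 and 0.43 for Creld2. The Hspa5 slope had P below 0.05 in 1 of 10 fits with a single library left out. Within the MWA+2DG group, replicates 1 and 4 had the most Jchain, while replicate 5 with little Jchain had the highest Hspa5, Ddit3, Chac1, Trib3 and Atf3.

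**Figure D4:**
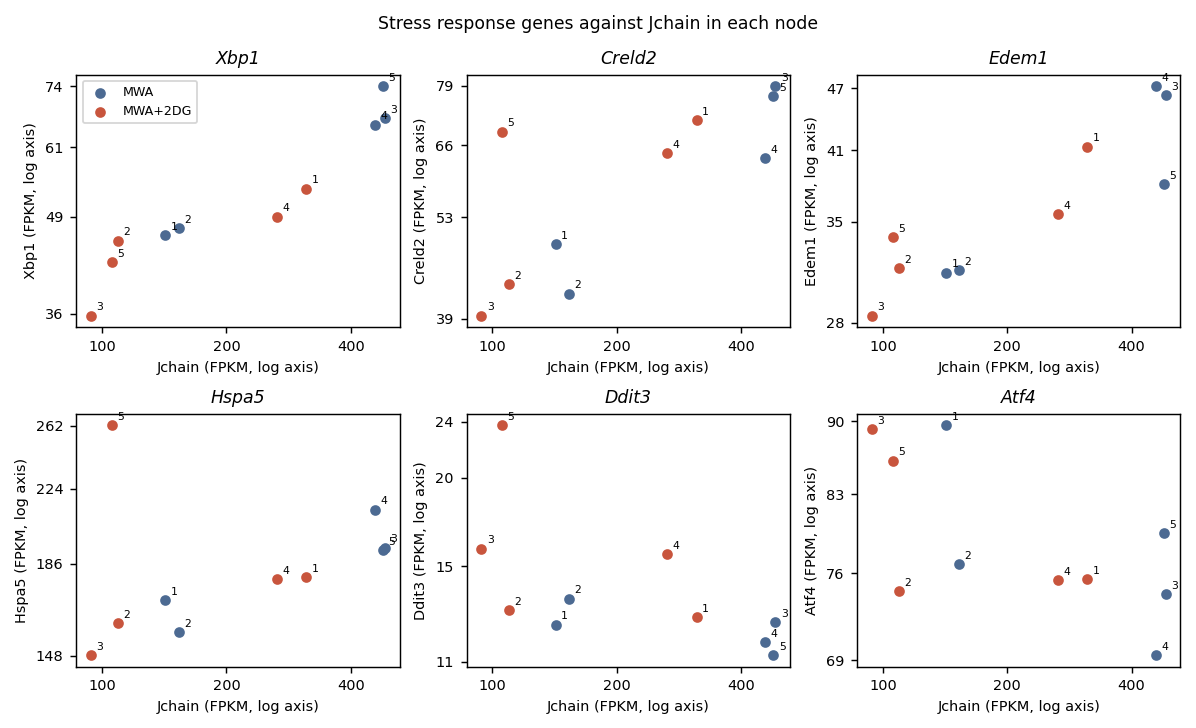
FPKM of 6 members against Jchain in each node (both axes log2 scaled), MWA in blue and MWA+2DG in red, with the replicate number beside each point. Xbp1, Creld2 and Edem1 are higher in nodes with more Jchain, apart from MWA+2DG replicate 5 in Creld2, while Ddit3 and Atf4 are not.

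At equal Jchain the median log2 fold change of the chaperones was 0.09, that of the degradation genes 0.03, that of the sensors with Xbp1 -0.06 and that of the Atf4 branch 0.16. Chac1 was then at 0.61 (SE 0.23, limma adjusted p = 1.00) and Ddit3 at 0.23 (SE 0.16).

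Other genes of the same pathways were read from 5 lists, of which 84 of 85 genes were matched and 82 tested. By the study's rule 1 was higher (1.22% of those tested) and 2 were lower (2.44%), shares near the 0.952% and 1.87% of all genes, so the calls are given as values of single genes. Atf5, a transcription factor whose translation is controlled as that of Atf4, was the 1 higher gene. It was at 16.1, 16.0, 15.9, 14.9 and 17.2 FPKM with MWA and at 16.4, 16.8, 29.6, 30.5 and 42.7 FPKM with MWA+2DG (log2 fold change 0.64, SE 0.23, limma P = 0.0178, adjusted p = 0.995, exact permutation p = 0.0317). As with Ddit3 and Trib3, MWA+2DG replicates 3 to 5 lay above every MWA library. Replicates 1 and 2 of MWA+2DG lay within the MWA range of Atf5, as with Ddit3, while Trib3 in replicate 1 was below its MWA range. Within replicates 3 to 5 the log2 fold change of Atf5 was 1.04 (exact permutation p = 0.1).

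Erp44, which retains client proteins in the secretory pathway, was lower with 2DG. It was at 41.3, 40.6, 41.1, 43.3 and 43.3 FPKM with MWA and at 35.7, 38.7, 34.5, 35.9 and 30.3 FPKM with MWA+2DG, so the groups did not overlap (log2 fold change -0.26, SE 0.07, limma P = 0.00494, adjusted p = 0.995, smallest possible exact permutation p = 0.00794). Spcs1, a signal peptidase subunit, was also lower, with overlapping groups (log2 fold change -0.25, exact permutation p = 0.0238). Erp44 was at -0.34 and Spcs1 at -0.31 on the same scale within replicates 3 to 5. Of the 16 further folding genes 1 was called, of the 17 further translocation genes 1 and of the 12 further regulators 1. Of those 16 folding genes 2 had groups that do not overlap, Erp44 and Ero1b, which was not called, against 0.802% of all genes. Of the 14 further degradation genes 0 were called, and Ube2j1 (-0.17, exact permutation p = 0.159) and Selenos (-0.12, exact permutation p = 0.19) had the smallest P. Of the 23 further Atf4 target genes tested 0 were called, with a median log2 fold change of 0.05 and 15 above 0, and the smallest P belonged to Sesn2 (0.21, exact permutation p = 0.103) and Nupr1 (0.35, exact permutation p = 0.159). The log2 fold changes within replicates 3 to 5 were -0.33 for Ube2j1, -0.05 for Selenos, 0.31 for Sesn2 and 0.59 for Nupr1.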

How the data were processed

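RNA of 10 TDLNs was sequenced, 5 MWA and 5 MWA+2DG. The authors deposited FPKM per gene, 1 table per mouse. The submitters' processing notes name cutadapt 1.9, HISAT2 2.0.4, UMI-tools, StringTie 1.3.4d and build mm9, and the study's methods name fastp, HISAT2, StringTie and ballgown. The sources used here do not say whether molecular identifiers entered the quantification. Depth is unknown, so no counting error is given. Symbols matched 33541 of 33643 identifiers, and values of 57 shared symbols were summed. From log2(FPKM + 1), limma 3.58.1 in R 4.3.3 was fitted to 13334 genes that averaged 1 FPKM or more, with Benjamini-Hochberg adjustment over all of them. The study names limma, P below 0.05 and a log fold change beyond 0.25. The pseudocount, filter and log base were chosen here. The fits were tested on simulated data. Single values, in all or fewer libraries, were compared by two-sided exact permutation of FPKM (252 regroupings of 5 against 5). The members and gene lists were chosen with earlier results of these data known. All members are named, with values in every library for the regulators, Hspa5 and, in each branch, the 3 smallest P and the smallest slope P. Other pathway genes are named where called by the rule or, in lists with none, as the 2 of smallest P. Derl3, Ero1b, Asns and comparison markers were named after their values were seen. The largest share of equal values between any 2 libraries was 0.000178. Alternatives were the pseudocount, filter, scaling, test, covariates, replicate block and single omissions. Promoters came from RefSeq, GRCm38.p6.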

Additional observations from a re-analysis of the deposited data

Results flagged for a closer look

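In 7 of 70 groups of 5 libraries (35 genes in 2 groups), the highest library stood apart from the other 4 by Dixon's criterion, which chance does in about 1 of 20 groups. MWA+2DG replicate 5 stood apart in Hspa5 (262 FPKM, the others 148 to 179.8), in Ddit3 (23.7 FPKM, the others 12.7 to 15.9) and in Atf3 (5.76 FPKM, the others 0.652 to 1.63). MWA replicate 4 stood apart in Atf3 (3.00 FPKM, the others 0.803 to 1.18). MWA replicate 5 stood apart in P4hb (113 FPKM, the others 95.0 to 100.2) and in Sdf2l1 (70.9 FPKM, the others 42.9 to 51.0). MWA+2DG replicate 1 stood apart in Edem3 (9.29 FPKM, the others 6.64 to 7.23).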

How the results depend on the processing

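Among the members 2 were called higher and 1 lower, and the numbers moved with the setting. The count of members higher was 1 with a filter of 5 FPKM, under which Chac1 was not tested, and 1 with quantile normalization, median ratio scaling, the Wilcoxon test and Jchain as a covariate. The count of members lower was 0 with values rescaled to a sum of 1000000, quantile normalization, the Wilcoxon test, Jchain as a covariate and Mzb1 as a covariate. Over all genes, 69 of 8052 were called higher and 161 lower with the filter of 5 FPKM. Quantile normalization gave 144 higher and 241 lower of 13334 genes, and median ratio scaling 131 and 253. With single libraries left out the members called ranged from 0 to 4 higher and from 0 to 2 lower. All genes at an adjusted p below 0.05 then ranged from 0 to 1. Without MWA+2DG replicate 5 both member counts were 0, where 222 of 13348 genes were called higher and 176 lower. Shares over all genes are not given for the other omissions, the Wilcoxon test and the covariates. In replicates 3 to 5 there were 4 higher and 3 lower, and in replicates 1 and 2 there were 1 and 0. Sign changes were followed only in the regulators, Hspa5, Asns and, in each branch, the 3 members of smallest P and that of smallest slope P. Log2 fold changes that changed sign in this set were close to 0 in most cases. With rescaling these were Atf6 (0.031), Hspa5 (0.050) and Ssr1 (0.0094), and with quantile normalization Hspa5 (0.060). With Jchain as a covariate they were Atf4 (-0.049), Hspa5 (0.069), Creld2 (0.23), Edem1 (0.059), Edem2 (0.0064) and Ssr1 (0.017). Outside the set Hsp90b1 (0.13), Pdia4 (0.15), Dnajb9 (0.22), Sdf2l1 (0.084), Hyou1 (0.095), Syvn1 (0.048) and Derl1 (0.0069) then also went from below to above 0. With Mzb1, another plasma cell gene, as a covariate those of the set were Atf4 (-0.019), Hspa5 (0.10), Manf (0.094), Creld2 (0.28), Herpud1 (0.00459), Edem1 (0.0071), Edem2 (0.023) and Sec61b (0.080). The mean of the translocation genes was then 0.039 against -0.11. In the replicate sets only the members called over all libraries were followed. Of these, Xbp1 (0.076) and Ddit3 (-0.0083) changed sign in replicates 1 and 2. Other members also changed sign there, among them Atf4 (-0.14), Trib3 (-0.028), Eif2ak3 (0.0066), Creld2 (0.29) and Edem1 (0.20). In replicates 1 and 2 the mean of the sensors with Xbp1 was 0.10 against -0.13. The mean of the 6 Atf4 branch genes tested there was 0.00148 (0.21 over all 8 genes and libraries). With single libraries left out Atf6 ranged from -0.10 to 0.015, Hspa5 from -0.14 to 0.060 and Creld2 from -0.24 to 0.014. The members with a Jchain slope above 0 at P below 0.05 were 9, were 5 with Mzb1 in place of Jchain and 0 in replicates 3 to 5, and ranged from 5 to 12 with single libraries left out. Members with a slope below 0 at P below 0.05 were 0, were 1 without the group term, without the filter or with quantile normalization and 2 with group and replicate set terms, and ranged from 0 to 1 with single omissions. Members with an adjusted p below 0.05 for the slope were 0, were 1 without the group term and ranged from 0 to 1. All genes with such a slope were 8, were 17 without the group term, 1 with Mzb1, 0 without the filter, 3 without MWA replicates 3 and 5 (the libraries farthest from the median Jchain level) and 0 in replicates 3 to 5, and ranged from 2 to 16. The slope of Dnajb9 was -0.00166 in replicates 3 to 5. Rescaling moved the median of all genes to 0.07 and the calls over all genes from 127 higher and 249 lower to 328 higher and 159 lower. Same-numbered libraries of the 2 groups had correlations of their deviations from 0.0334 to 0.501, and 3 of 10 libraries correlated best with their own number, so the numbers are not read as pairs. With the replicate block 2 members were called higher (Chac1 and Asns, not Ddit3) and 0 lower, with Xbp1 at -0.39. The settings by replicate set were chosen after seeing the data. The cause of these changes was not tested. No depth is known, so counting error behind low values such as Chac1 cannot be given.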
